A study of Homo sapiens with 6 samples.

Results

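The mitochondrial respiratory chain and the ATP synthase were examined in RWPE-1 cells through the probes for their nuclear-encoded genes. Probes were chosen by gene symbol, as those annotated to the NDUFA, NDUFB, NDUFC, NDUFS and NDUFV genes, SDHA to SDHD, the UQCR genes, CYC1, the nuclear COX genes of the series 4 to 8 that carry a letter A, B or C, and the ATP5 genes. Of 48799 probes with values, 105 matched, for 77 genes. Of these, 91 probes for 70 genes had a detection p under 0.01 on at least 3 of the 6 arrays and were kept, out of 13423 probes kept in all. The detection p sets each probe against its array's negative control beads.

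RWPE-1 is an established human prostate epithelial line, immortalised and not tumorigenic. Both groups received 100 nM of an oligomer by transfection and were collected 72 h later. The LNA-205 group (replicates D, E and F) received an oligomer of locked nucleic acid, whose modified sugars strengthen base pairing, directed against miR-205. The LNA-Scr group (replicates A, B and C) received an oligomer of scrambled sequence as a control. All 6 samples came from this cell line. The labels do not say whether the 3 transfections of a group used separate cultures, so p-values measure the spread between these samples. Each sample was read on 1 single-colour Illumina bead array, with 12585 to 14195 probes above background and a median unnormalized intensity of 217 to 226.5. KRT5 and KRT14, keratins of basal epithelium, CDH1 and EPCAM were kept, whereas none of the 6 fibroblast, 3 endothelial and 4 muscle markers was. The luminal keratins KRT8 and KRT18 were kept and KLK3 was not, with summed intensities of 2586 to 3010 in LNA-Scr and 2715 to 2918 in LNA-205 for that list. Sums here are of normalized intensities on the linear scale, over all probes annotated to a list, kept or not. They are not on the scale of the unnormalized median. Of 3 neuroendocrine markers INSM1 was kept, above background on 3 of the 6 arrays, with a log2 difference of 0.59 (SE 0.28, limma adjusted p = 0.804), and the list's sums were 211.2 to 318.4 and 264.4 to 350.8. Of 5 leukocyte markers CD14 and CD68 were kept, while PTPRC, ITGAM and CD3E were not, and the list's summed intensity was 6008 to 6662 in LNA-Scr and 6683 to 7036 in LNA-205. The fibroblast sum was 696.6 to 726.8 and 763.4 to 1169, with no marker kept. The part of other cell types in the values below was not tested. In whole cultures, a change in the share of cells of a type and a change in RNA per cell cannot be told apart.

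The respiratory chain passes electrons from NADH and succinate to oxygen through complexes I to IV in the inner mitochondrial membrane and pumps protons as it does so. The ATP synthase, also called complex V, lets the protons flow back through a ring of c subunits, whose rotation drives ATP formation in the F1 head. Most subunits are made from nuclear genes and imported, and a few come from mitochondrial DNA. Nuclear respiratory factor 1 (NRF1) and GABPA, an ETS-family factor, are known activators of many of the nuclear genes.

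The oligomer was directed against the microRNA whose main mature strand is shown here, from RefSeq (GRCh38.p14, chr1:209432166-209432187, plus strand), with its seed, bases 2 to 8, in capitals.
hsa-miR-205-5p: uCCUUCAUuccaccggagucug
The arrays do not read the mature microRNA, and target sites in the transcripts were not analysed here.

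Promoter sequences are shown for 3 members, as an example of letters that some respiratory chain promoters hold. UQCR11 was the member with the largest difference in the higher direction, ATP5MK had lower values in LNA-205, and SDHD holds matches of both kinds. ATP5F1D, the member furthest down, was not matched to a promoter. Each runs from 250 bases before to 50 bases after the gene's start and is taken from RefSeq (GRCh38.p14), for UQCR11 chr19:1605413-1605712 on the minus strand, for ATP5MK chr10:103396426-103396725 on the minus strand and for SDHD chr11:112086623-112086922 on the plus strand. Capitals mark matches, on either strand, to CCGGAAG, the core letters bound by GABPA and other ETS factors, or to GCATGCGC, part of the site that NRF1 binds.
UQCR11: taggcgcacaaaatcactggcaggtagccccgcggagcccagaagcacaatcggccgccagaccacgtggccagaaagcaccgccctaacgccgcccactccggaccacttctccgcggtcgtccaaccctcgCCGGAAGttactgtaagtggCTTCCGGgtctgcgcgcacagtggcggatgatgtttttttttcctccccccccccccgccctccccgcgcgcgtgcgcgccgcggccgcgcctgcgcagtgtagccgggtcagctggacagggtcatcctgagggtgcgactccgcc
ATP5MK: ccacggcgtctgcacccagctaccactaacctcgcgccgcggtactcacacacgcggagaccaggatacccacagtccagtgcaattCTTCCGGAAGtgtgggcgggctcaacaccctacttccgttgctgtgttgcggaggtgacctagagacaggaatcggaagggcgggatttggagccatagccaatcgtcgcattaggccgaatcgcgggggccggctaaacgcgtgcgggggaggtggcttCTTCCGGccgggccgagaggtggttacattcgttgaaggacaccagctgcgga
SDHD: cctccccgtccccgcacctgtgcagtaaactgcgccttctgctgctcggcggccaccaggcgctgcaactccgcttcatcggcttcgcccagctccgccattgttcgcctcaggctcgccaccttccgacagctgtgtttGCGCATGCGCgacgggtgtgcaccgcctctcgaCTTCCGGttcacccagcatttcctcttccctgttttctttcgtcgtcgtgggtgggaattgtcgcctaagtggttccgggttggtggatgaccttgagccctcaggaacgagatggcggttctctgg
In the UQCR11 promoter there were 2 matches to the ETS letters and in that of ATP5MK 3, a pair of which overlap on opposite strands. SDHD had 1 match to them and 2 overlapping matches to the NRF1 letters, on opposite strands. Among the 57 of 70 kept genes matched to a promoter by gene ID, 31.6% held CCGGAAG, against 20.8% of 7438 promoters of genes with a kept probe and 10.7% of all 27305 promoters. For GCATGCGC the shares were 17.5%, 6.1% and 3.27%. Both strands were searched. The TATA letters TATAAA were in 8.77%, 5.31% and 12%. A match is a description of these letters and does not show that a factor binds there.

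Expression of the respiratory chain and of the ATP synthase differed little between LNA-205 and LNA-Scr cultures. None of the 91 probes passed limma's test after Benjamini-Hochberg adjustment over all 13423 kept probes, and neither did any other probe (0% called). The smallest adjusted p of a member was 0.51, for UQCR11. Before adjustment, 4 member probes (4.40%) had a limma p under 0.05, 2 higher and 2 lower in LNA-205. Of all kept probes 834 did (6.21%), with 3.19% higher and 3.02% lower. The members' share was below that of all probes here and in 10 of 14 alternatives. It was above it in the other 4, namely median centring, the authors' processed values, the trended prior and leaving out LNA-Scr replicate C. The 4 member probes under 0.05 here, before any alternative, were 1 each of UQCR11 and UQCR10 and both of ATP5F1D. The groups did not overlap for 17 member probes, 11 higher and 6 lower, or 18.7%, against 11.9% of all kept probes. By direction, 6.26% of all kept probes were higher and 5.68% lower without overlap.

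The intervals limit how large a change could have been missed. The 95% interval of the log2 difference lay within −1 and 1 for all 91 member probes, and within −0.5 and 0.5 for 78 of them (85.7%). For all kept probes those shares were 97.3% and 65.7%. The members' intervals were narrower, with a median SE of 0.11 against 0.13. Brightness goes with this, since 59 of the 91 members had a mean log2 intensity of 12 or more, and among all 2179 kept probes this bright 92.7% had an interval within −0.5 and 0.5, close to the 94.9% of those 59 members. Each interval is for a single probe and is not adjusted for their number.

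**Figure D1:**
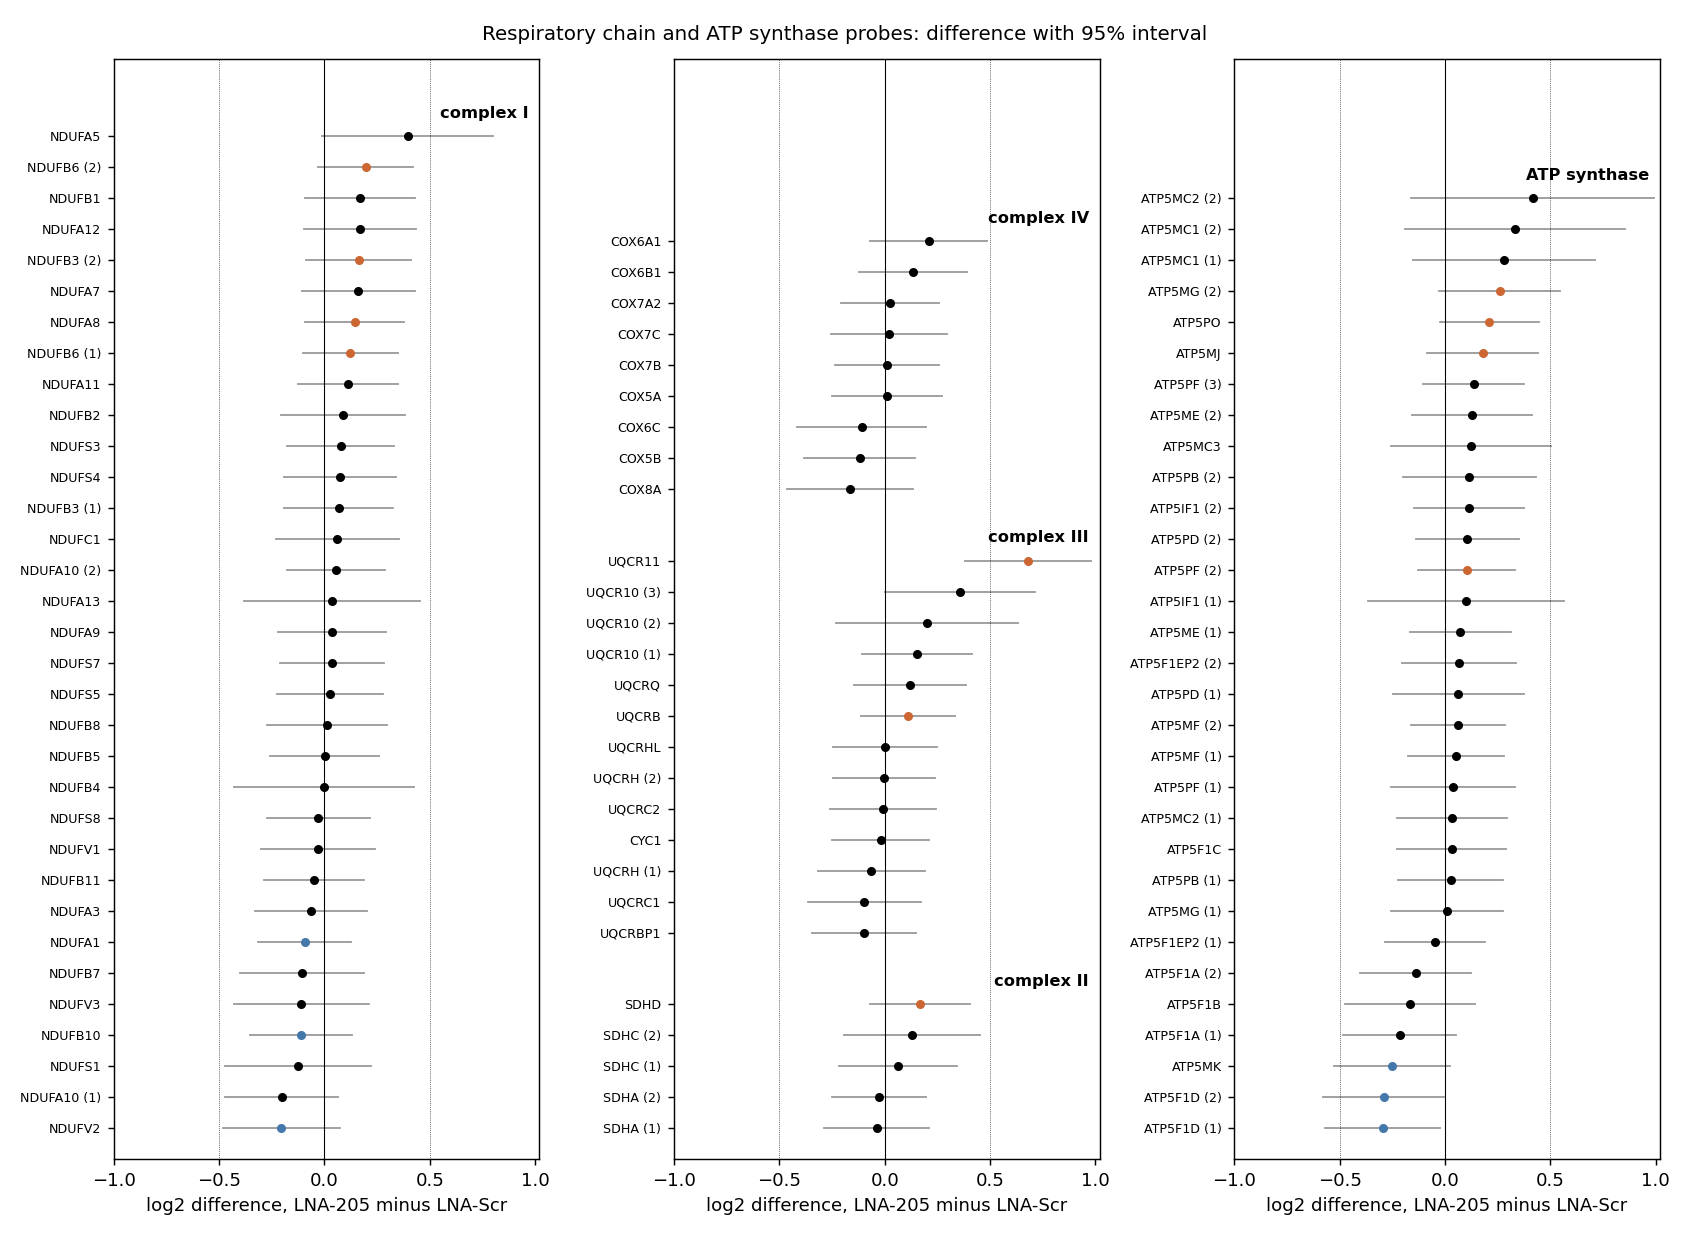
Log2 difference (LNA-205 minus LNA-Scr, x axis) of each of the 91 kept probes with its 95% interval, by complex. Numbers in brackets tell apart probes of 1 gene, from the lowest difference up. Orange points are higher and blue points lower in LNA-205 with no overlap of the 3 arrays per group, and black points overlap. Dotted lines stand at −0.5 and 0.5. Most points lie near 0, and UQCR11, at 0.68, stands farthest from it.

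Differences leaned slightly upward, and 1 control array carried much of that lean. Means were higher in LNA-205 for 62 of the 91 member probes and lower for 29 (68.1% higher), with a median log2 difference of 0.04, against 49.9% higher and a median of −0.00032 over all kept probes. In an alternative to quantile normalization, arrays were centred on their medians over all 48799 probes with values, kept or not. Then 15 member probes were higher and 76 lower (16.5% higher), and 17.3% of all kept probes were higher. The directions given here thus hold relative to the other probes of the array. In that setting 51 members lay above the median of all kept probes and 40 below it. LNA-Scr replicate B read lower than the other arrays on these probes, with a median deviation from the probe mean of −0.09, where the 5 other arrays lay between −0.0012 and 0.03. It was the lowest of the 6 arrays for 32 member probes (35.2%), against 17.2% of all kept probes, and the highest for 5. Without LNA-Scr replicate B, 48 member probes were higher and 43 lower, and the median was 0.02, whereas without LNA-Scr replicate C it was 0.07. Within the ATP synthase LNA-Scr replicate B was lowest for 17 of 31 probes (54.8%). The other complexes showed this less. In complex I it was lowest for 7 of 33 probes (21.2%) and LNA-Scr replicate A for 9 (27.3%). In complex III replicates A and B were each lowest for 4 of 13 probes. In complex IV replicates A, B and C were each lowest for 2 of 9, and in complex II replicate B was for 2 of 5. Labels and files give no slide or scan batch, so the part of a batch in the low values of replicate B was not tested.

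**Figure D2:**
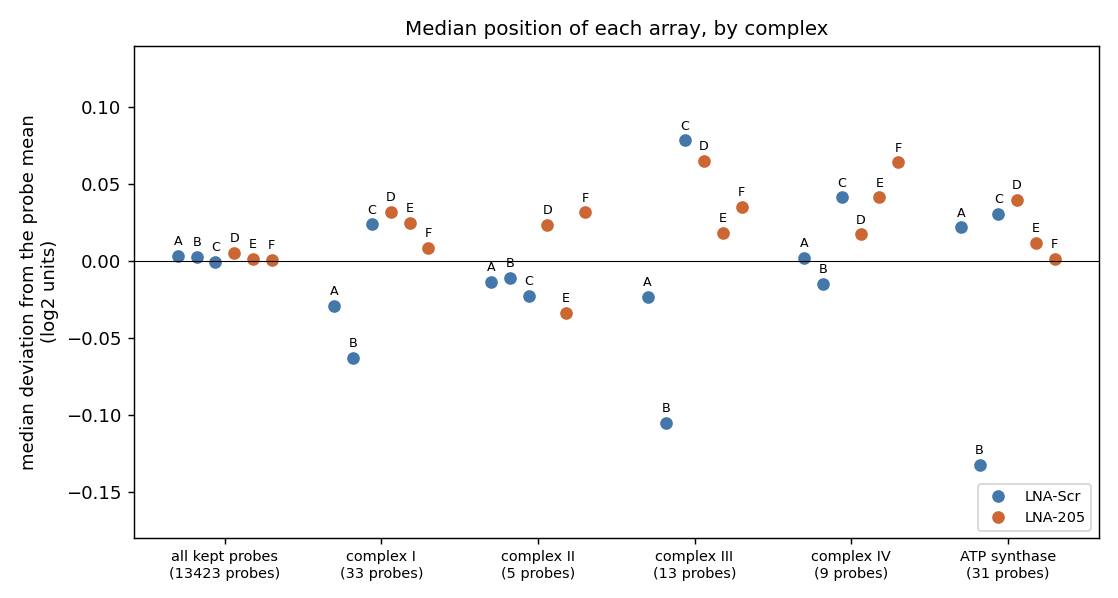
Median deviation of each array from the probe's mean over the 6 arrays, in log2 units (y axis), for all kept probes and for each complex. Blue points are LNA-Scr arrays A to C and orange points LNA-205 arrays D to F. LNA-Scr replicate B lies lowest for the ATP synthase (−0.13), complex III (−0.11) and complex I (−0.06), while all arrays sit near 0 for all kept probes.

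Complex I, the NADH dehydrogenase that feeds electrons to ubiquinone, was represented by 33 kept probes of 38 matched, for 30 genes. Of these probes 22 were higher and 11 lower in LNA-205, with a median log2 difference of 0.04. None had an unadjusted limma p under 0.05, against 6.21% of all kept probes. Without LNA-Scr replicate B, 16 were higher and 17 lower. The groups did not overlap for 7 probes (21.2%), 4 higher and 3 lower, against 11.9% of all kept probes. Among core subunits, most of which carry the flavin or iron-sulfur clusters, 4 of 6 probes had lower means. Without LNA-Scr replicate A, 4 were higher and 2 lower, and without LNA-205 replicate D, 3 and 3.

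NDUFV2, a core iron-sulfur subunit of the NADH-oxidising arm, had log2 intensities of 13.16, 13.12 and 13.46 in LNA-Scr and of 13.02, 13.07 and 13.04 in LNA-205. All 3 LNA-205 arrays were below the controls, by a log2 difference of −0.20 (SE 0.12, limma adjusted p = 0.835), and replicate C stood above the other controls. Without replicate C the difference was −0.097, and with median centring −0.39, where the median of all kept probes was −0.16. NDUFV1, the flavin-bearing partner that takes up electrons from NADH, differed by −0.03 (SE 0.12) with overlapping arrays. NDUFS1, the largest core subunit, differed by −0.12 (SE 0.15), but its probe was above background on 3 of the 6 arrays, the fewest that the filter allows. An NDUFB4 probe just outside the filter was above background on 2 arrays.

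Accessory subunits surround this core and take no direct part in electron transfer. Of their 27 probes 20 had higher means in LNA-205, or 14 without LNA-Scr replicate B and 4 with median centring. With median centring their median was −0.12, against −0.16 for all kept probes. NDUFA5, an accessory subunit of the arm that faces the matrix, read 7.97, 7.71 and 7.58 in LNA-Scr and 8.05, 7.91 and 8.50 in LNA-205. Its arrays overlapped, replicate F was highest, and the difference of 0.40 (SE 0.18, limma adjusted p = 0.795) rests on a dim probe that was above background on 2 of the 3 LNA-Scr arrays. It was 0.22 without replicate F, and 0.23 both without background correction and with the authors' processed values. NDUFB6, an accessory subunit of the membrane arm, read 11.84, 11.74 and 11.73 in LNA-Scr and 11.97, 11.94 and 11.98 in LNA-205, a difference of 0.20 (SE 0.10, limma adjusted p = 0.804). A second NDUFB6 probe gave 0.12 (SE 0.10), and neither probe overlapped between the groups. NDUFA8 (0.14) and 1 of 2 NDUFB3 probes (0.16), also of accessory subunits, were likewise higher without overlap, and NDUFB10 (−0.11) and NDUFA1 (−0.09) lower. NDUFA10, another accessory subunit, read 11.58, 11.43 and 11.31 in LNA-Scr and 11.15, 11.21 and 11.35 in LNA-205 on 1 probe. Control C and replicate F overlapped there (−0.20, SE 0.12), and the other probe had the opposite sign (0.05, SE 0.10), so that gene has no direction here.

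Complex II, succinate dehydrogenase, joins the citric acid cycle to the chain and is made from nuclear genes alone. All 5 matched probes were kept, for SDHA, SDHC and SDHD. SDHA, the flavoprotein that oxidises succinate, read 11.98, 11.99 and 11.94 in LNA-Scr and 11.95, 11.90 and 11.99 in LNA-205 on 1 probe (−0.02, SE 0.10). The other read 11.82, 11.82 and 11.91, then 11.72, 11.94 and 11.77 (−0.04, SE 0.11), and both overlapped. SDHD, a membrane anchor that helps bind ubiquinone and haem, read 11.43, 11.26 and 11.38 in LNA-Scr and 11.55, 11.56 and 11.46 in LNA-205. Its groups did not overlap, with a difference of 0.17 (SE 0.10, limma adjusted p = 0.835). SDHC, the other anchor, read 11.19, 11.06 and 11.51 in LNA-Scr and 11.43, 11.26 and 11.46 in LNA-205 on 1 probe, with control C highest (0.13, SE 0.14). Its second probe gave 0.06 (SE 0.12), also with overlap.

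Complex III, which passes electrons from ubiquinol to cytochrome c, held the member that differed most. UQCR11 encodes a small subunit without a redox group. Its log2 intensities were 7.26, 7.62 and 7.51 in LNA-Scr and 8.26, 8.02 and 8.17 in LNA-205, and all LNA-205 arrays were above all controls. Group means were 7.47 ± 0.18 and 8.15 ± 0.12 (SD, n = 3 per group). They differed by 0.68 on the log2 scale (SE 0.13, 95% interval 0.38 to 0.98), or 1.60-fold. This ranked 16 among 13423 probes in limma's test, and it did not pass the adjustment (limma adjusted p = 0.51, and from 0.426 to 0.921 over the alternatives run). The probe is dim, was above background on 2 of the 3 LNA-Scr arrays, and is the 1 probe for its gene. Its difference was 0.38 without background correction and also with the authors' processed values.

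UQCR10, another small subunit that sits by cytochrome c1, had 3 kept probes, all with higher means in LNA-205. The probe with the largest difference read 9.89, 9.77 and 10.33 in LNA-Scr and 10.30, 10.35 and 10.42 in LNA-205. Replicate C of the controls lay among the LNA-205 values, and the difference was 0.36 (SE 0.15, limma adjusted p = 0.795). The other probes gave 0.20 (SE 0.19) and 0.15 (SE 0.11). UQCRB, a small subunit next to the ubiquinone site, was higher without overlap by 0.11 (SE 0.10), and UQCRQ by 0.12 (SE 0.12) with overlap. Both probes of UQCRH, also a small subunit, had lower means with overlap (−0.063, SE 0.11, and −0.0029, SE 0.11). CYC1, cytochrome c1, which hands electrons to cytochrome c, differed by −0.02 (SE 0.10). UQCRC1, a core protein that resembles a processing peptidase, read 11.83, 11.53 and 11.73 in LNA-Scr and 11.68, 11.52 and 11.61 in LNA-205, with overlap (−0.10, SE 0.12). UQCRC2, the other core protein, differed by −0.0067 (SE 0.11). Over the 13 probes of complex III the median was 0.0024, with 7 higher and 6 lower. Probes annotated to the gene copies UQCRHL (0.0024) and UQCRBP1 (−0.10, with 13.54, 13.48 and 13.69 in LNA-Scr and 13.43, 13.54 and 13.45 in LNA-205) are uncertain, since such copies are close in sequence to UQCRH and UQCRB.

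Complex IV, cytochrome c oxidase, reduces oxygen, and its nuclear subunits surround a catalytic core made in the mitochondrion. Its 9 kept probes, for 9 genes, had a median log2 difference of 0.01. The groups overlapped for each of them, whereas 11.9% of all kept probes had no overlap. Of the 9 probes 6 were higher and 3 lower. The split was 4 higher and 5 lower without LNA-Scr replicate C or without LNA-205 replicate F, and with median centring 1 and 8, or 2 above and 7 below the median of all kept probes. All 9 intervals lay within −0.5 and 0.5. COX6A1, the non-muscle form of a subunit that takes part in regulation by nucleotides, read 12.55, 12.56 and 12.81 in LNA-Scr and 12.79, 12.79 and 12.97 in LNA-205, with a difference of 0.21 (SE 0.12, limma adjusted p = 0.827). COX8A, a small membrane subunit, lay at the other end, with 14.47, 14.71 and 14.58 in LNA-Scr and 14.22, 14.45 and 14.59 in LNA-205 (−0.17, SE 0.13). COX6B1, which faces the intermembrane space, read 14.48, 14.26 and 14.50 in LNA-Scr and 14.57, 14.58 and 14.50 in LNA-205 (0.13, SE 0.11). COX5B, on the matrix side, read 14.76, 14.71 and 14.71 in LNA-Scr and 14.68, 14.71 and 14.42 in LNA-205, where replicate F was lowest (−0.12, SE 0.11). Its neighbour COX5A differed by 0.01 (SE 0.11) and COX7C by 0.02 (SE 0.12). COX4I1, which the symbol rule leaves out, differed by −0.02 (SE 0.11).

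Tissue-restricted forms of complex IV subunits were not above background. COX6A2 and COX7A1, known from heart and skeletal muscle, and COX6B2, COX7B2 and COX8C, known from testis, had no probe above background on any of the 6 arrays. The probes for NDUFC2 and NDUFS6 were not above background on any array either, although their products belong to complex I in most cells, and each gene had 1 probe. These 7 genes account for the difference between 77 and 70.

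The ATP synthase had 31 kept probes for 18 genes, 24 higher and 7 lower in LNA-205, with a median log2 difference of 0.07. Without LNA-Scr replicate B the split was 18 and 13 and the median 0.04. The lower probes belonged mainly to the F1 head and central stalk, and the higher ones to the peripheral stalk, c-ring and membrane part. This grouping was made after the values were seen and was not tested. With median centring 26 of the 31 probes were lower, in a setting where 17.3% of all kept probes were higher. Relative to the median of all kept probes there, 21 of the 31 lay above and 10 below.

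In the F1 head, the site of ATP formation, both probes of ATP5F1A (alpha subunit) and the 1 of ATP5F1B (beta subunit) had lower means. ATP5F1A read 14.62, 14.32 and 14.50 in LNA-Scr and 14.32, 14.28 and 14.18 in LNA-205 on 1 probe (−0.22, SE 0.12, limma adjusted p = 0.808), and differed by −0.14 (SE 0.11) on the other. ATP5F1B read 15.81, 15.66 and 15.74 in LNA-Scr and 15.75, 15.64 and 15.32 in LNA-205, a difference of −0.17 (SE 0.13). Replicate F was the lowest array for all 3 probes, and without it their median went from −0.17 to −0.08. ATP5F1D, the delta subunit of the rotating central stalk, was the member furthest down. Its first probe read 13.62, 13.60 and 13.69 in LNA-Scr and 13.46, 13.14 and 13.41 in LNA-205. The second read 11.14, 11.10 and 11.05 in LNA-Scr and 10.88, 10.58 and 10.95 in LNA-205. On both probes every LNA-205 array was below every control, with replicate E lowest. The log2 differences were −0.30 (SE 0.12) and −0.29 (SE 0.12), with limma adjusted p of 0.793 and 0.795. Both probes report 1 gene on the same RNA and are not independent. Without replicate E the differences were −0.20 and −0.18. ATP5F1C, the gamma subunit of the same stalk, differed by 0.03 (SE 0.11).

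The peripheral stalk holds the F1 head still while the ring turns, and all 8 probes for its 4 genes had higher means, with a median of 0.10. ATP5PO, also known as OSCP, which ties the stalk to the F1 head, read 14.43, 14.34 and 14.42 in LNA-Scr and 14.68, 14.62 and 14.52 in LNA-205. Its groups did not overlap, with a difference of 0.21 (SE 0.10, limma adjusted p = 0.804). ATP5PF, another stalk subunit, was higher without overlap on 1 of its 3 probes (0.10, SE 0.10). Without LNA-Scr replicate B, 5 of the 8 stalk probes were higher and 3 lower, with a median of 0.05. Without LNA-205 replicate D the median was 0.06, and with median centring all 8 were lower. Their median in that setting was −0.10, against −0.16 for all kept probes.

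The c-ring is made from ATP5MC1, ATP5MC2 and ATP5MC3, which are known to encode the same mature protein behind different import sequences. Their 5 probes had higher means in LNA-205, with wide spreads. With median centring 3 did, and their median was 0.09, against −0.16 for all kept probes. ATP5MC1 read 12.60, 12.45 and 13.19 in LNA-Scr and 13.01, 13.10 and 12.97 in LNA-205, a difference of 0.28 (SE 0.19), where control replicate C was the highest array. Its second probe gave 0.33 (SE 0.23). ATP5MC2 gave 0.03 (SE 0.11) on 1 probe and 0.42 (SE 0.25) on a dim one, and ATP5MC3 gave 0.12 (SE 0.16). The median of these 5 probes, 0.28, was 0.13 without LNA-Scr replicate B, 0.14 without LNA-205 replicate F and 0.47 without LNA-Scr replicate C.

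Of the 8 probes for small subunits of the membrane part, 7 had higher means. ATP5MG, which lies where ATP synthase dimers meet, read 14.03, 13.76 and 14.14 in LNA-Scr and 14.29, 14.17 and 14.25 in LNA-205 on 1 probe, 0.26 higher (SE 0.13, limma adjusted p = 0.804). A second ATP5MG probe gave 0.01 (SE 0.12), with overlap. ATP5MJ was higher without overlap by 0.18 (SE 0.11). ATP5MK, a small subunit known for a part in holding dimers together, had lower values, with 8.95, 9.27 and 9.18 in LNA-Scr and 8.95, 8.88 and 8.81 in LNA-205, a difference of −0.25 (SE 0.12, limma adjusted p = 0.804). Its groups do not overlap, but by a narrow margin, since control replicate A and replicate D agree to 2 decimals. ATP5IF1, which stops the enzyme from running backward and hydrolysing ATP, differed by 0.11 (SE 0.11) and 0.10 (SE 0.20) on its 2 probes.

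**Figure D3:**
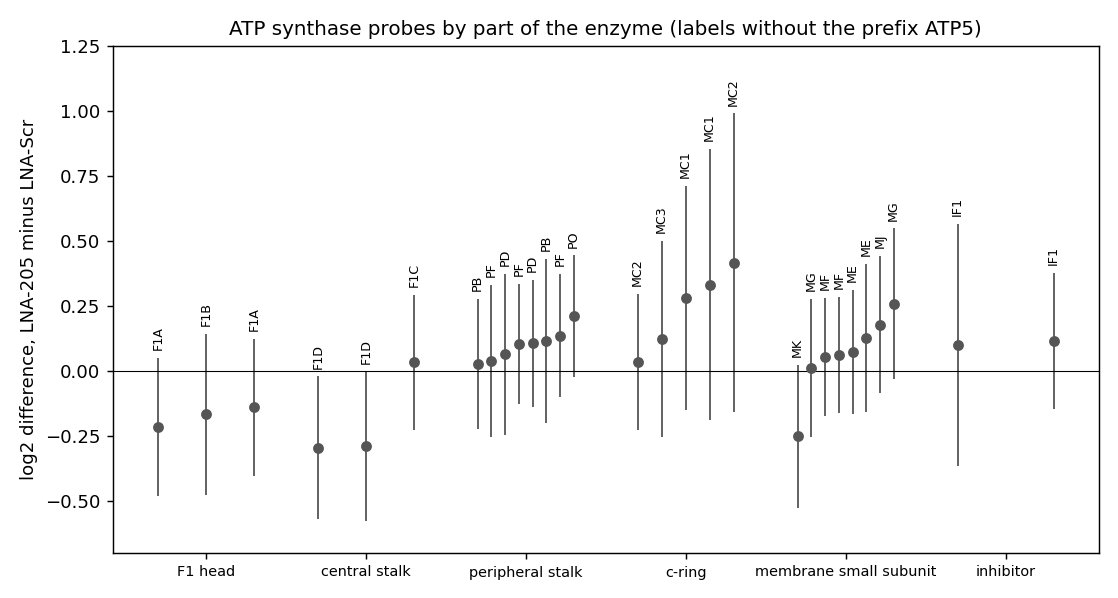
Log2 difference (LNA-205 minus LNA-Scr, y axis) of ATP synthase probes, leaving out the gene copy ATP5F1EP2, with 95% intervals, grouped by part of the enzyme (x axis). The 3 probes of the F1 head and both of ATP5F1D lie below 0 and the 8 of the peripheral stalk above it, and only the intervals of the 2 ATP5F1D probes leave out 0.

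**Figure D4:**
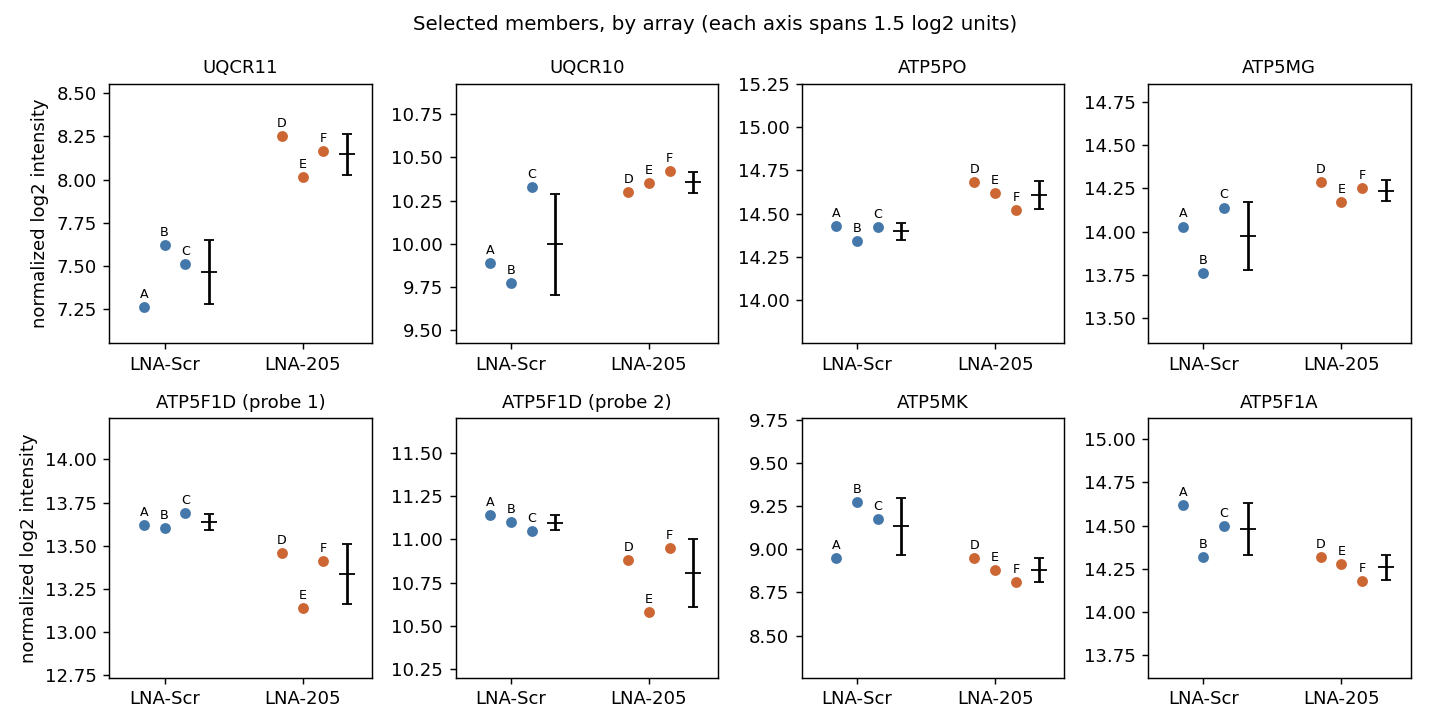
Normalized log2 intensity of 8 probes on each array (letters), with the mean and SD of each group in black. UQCR11, ATP5PO and ATP5MG are higher and both ATP5F1D probes lower on every LNA-205 array. For UQCR10, control C lies among the LNA-205 arrays, ATP5MK nearly touches at arrays A and D, and ATP5F1A overlaps.

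Most genes with more than 1 kept probe gave the same sign on each. Of 19 such genes, 17 had probes of 1 sign, 13 higher and 4 lower, and NDUFA10 and ATP5F1EP2, a gene copy named after the epsilon subunit gene, had probes of opposite sign (0.07 and −0.05 for the latter). As with UQCRHL and UQCRBP1, which gene the ATP5F1EP2 probes read is uncertain. The spread between probes of 1 gene reached 0.38, for ATP5MC2.

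Other genes of mitochondrial energy supply were read over 8 lists with 152 kept probes. None of these passed limma's adjusted test (0% of all kept probes did), and 2 (1.32%) had an unadjusted p under 0.05, against 6.21% of all kept probes. Means were higher in LNA-205 for 57.2% of them, against 49.9%. The median size of the difference was 0.084 on the log2 scale, and the 95% interval lay within −1 and 1 for 149 probes. It reached past 1 for a probe each of COX20, COA3 and SLC25A3. Factors that assemble complex I had 12 probes higher and 8 lower (14 of 15 genes kept, median 0.02). NDUFAF5, a complex I assembly factor, read 10.98, 11.14 and 10.94 in LNA-Scr and 10.67, 10.82 and 10.76 in LNA-205, a difference of −0.27 (SE 0.11, limma adjusted p = 0.794), with −0.11 (SE 0.15) from a second probe. TIMMDC1, another assembly factor, differed by 0.23 (SE 0.13) with overlap. Assembly factors of complexes II to V had 22 higher and 14 lower (median 0.04). Among them COX20, a chaperone of the mitochondrial COX2 subunit, differed by 0.69 (SE 0.28, limma adjusted p = 0.795) with overlap, since replicate D at 8.65 lay below control B at 8.72. Replicate F, at 9.72, stood above all other arrays. ATPAF2, which helps assemble the F1 head, lay lower without overlap by a log2 difference of −0.24 (SE 0.12). Citric acid cycle genes had 8 higher and 10 lower (median −0.04), with PC (pyruvate carboxylase) and OGDH (oxoglutarate dehydrogenase) at −0.21 and −0.20.

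Regulators of mitochondrial gene expression had 8 probes higher and 10 lower, with a median of −0.01. TFAM, which packs and transcribes mitochondrial DNA, differed by 0.06 (SE 0.12), and GABPA by 0.21 (SE 0.16), with overlap for both. PPARGC1B, a coactivator of these genes, was higher by 0.23 and POLG2, a subunit of the mitochondrial DNA polymerase, lower by a log2 difference of −0.36 (SE 0.18). NRF1 and PPARGC1A did not pass the detection filter. Coenzyme Q synthesis had 10 higher and 4 lower (median 0.02), with PDSS2 at −0.18 and COQ5 at 0.16. Protein import had 16 higher and 12 lower (median 0.02), with TIMM17B at −0.26 and TIMM10 at 0.17. Carriers and porins had 6 higher and 5 lower (median 0.0091), with SLC25A1 at −0.23 and VDAC3 at 0.20. Cytochrome c and subunits outside the symbol rule had 5 higher and 2 lower. CYCS, cytochrome c itself, differed by 0.07 (SE 0.14) and HIGD1A, a factor known to be induced by low oxygen, by 0.23, 0.13 and 0.04 on its 3 probes. NDUFAB1, the acyl carrier subunit of complex I, lay lower without overlap at −0.15 (SE 0.11). No probe was named for a gene of mitochondrial DNA. MCCC2, a mitochondrial enzyme of leucine breakdown outside the chain, ranked first of all kept probes, at −1.72 (SE 0.16, limma adjusted p = 0.0646). Over 13 alternatives that keep single probes its adjusted p lay between 0.000211 and 0.662.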

How the data were processed

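RNA from 6 samples of transfected cells was read on Illumina bead arrays. The deposited unnormalized values are log2 probe intensities, with a deposited detection p-value beside each, per the file headers. A second deposited table, on a log2 scale and already processed by the authors, served as an alternative. How these were normalized is not stated. The submitters' processing notes name lumi, with no role. Of 48803 rows 4 held no values. Background correction and quantile normalization used limma's neqc (offset 16, R 4.3.3, limma 3.58.1), with negative controls inferred from detection p. Each kept probe was tested with lmFit and eBayes (two-sided, n = 3 per group), with Benjamini-Hochberg adjustment over 13423 probes and a threshold of 0.05. The number of arrays limits the precision. GEO's platform annotation gave 28095 probes 1 gene symbol and 13 several, and did not list 20691. The fit was also run on simulated data with independent noise for each probe. Those data hold no array effects, so that run cannot assess them. Members and lists were chosen with earlier results of these data known, and subunit roles were assigned after values were seen. Values on each array are given for members with an unadjusted p under 0.05 and for the 2 smallest p per complex and direction, with some genes always named. Other named members were added after their values were seen. Alternatives varied background correction, normalization, the detection filter, the summary of probes, the variance prior and the arrays.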

Additional observations from a re-analysis of the deposited data

How the results depend on the processing

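None of the 91 member probes passed the adjusted limma test under any alternative run, where the smallest adjusted p of a member was 0.426. Over all probes, 1 passed without background correction, with median centring, with the authors' processed values, with probes detected on all 6 arrays and with the brightest probe per gene, and 4 passed with a trended, robust variance prior. In each of these settings MCCC2 was among them, and the count was 0 with no detection filter, with probes averaged per gene and with any 1 array left out. The other probes under the trended prior were those of FERMT2, PI3 and EIF4H. Member probes at an unadjusted p under 0.05 numbered 10 with median centring (10.99%, against 9.28% of all probes), 2 without a detection filter (1.91% against 5.28%), 8 with the trended prior (8.79% against 6.74%) and 2 when probes were averaged per gene (2.86% against 6.28%). With 1 array left out they numbered from 2 (2.20% against 5.44% without LNA-Scr replicate B) to 7 (7.69% against 6.86% without LNA-Scr replicate C). Median centring used each array's median over all 48799 probes with values, kept or not, in place of quantile normalization. It moved the median of all kept probes to −0.16, and members were then at −0.14, which is 0.02 above it. By complex the medians were −0.13 (I), −0.090 (II), −0.19 (III), −0.19 (IV) and −0.13 (ATP synthase), or 0.03, 0.07, −0.03, −0.03 and 0.03 relative to all kept probes. The higher share of members went from 68.1% to 16.5%, and of all kept probes from 49.9% to 17.3%. With 1 array left out, medians ran from 0.02 to 0.07 for all members, −0.011 to 0.081 for complex I, −0.0070 to 0.097 for complex II, −0.015 to 0.044 for complex III, −0.017 to 0.032 for complex IV and 0.035 to 0.105 for the ATP synthase. Complex II gave 0.13 with the brightest probe and 0.096 with probes averaged per gene. Of 33 named member probes, 23 kept their sign under the alternatives run. With median centring the sign turned for ATP5MC2 (−0.16), ATP5MC3 (−0.022), ATP5PO (−0.011), SDHC (−0.022), COX5A (−0.20) and COX6B1 (−0.11). Relative to the median of all kept probes there, ATP5MC3 (0.14), ATP5PO (0.15), SDHC (0.14) and COX6B1 (0.05) stayed above 0. ATP5MC2 (−0.00097) and COX5A (−0.036) lay below it. COX5A also turned with the authors' values (−0.0053). With 1 array left out the range crossed 0 for ATP5MC2 (−0.046 to 0.10), ATP5MC3 (−0.0097 to 0.28), NDUFV1 (−0.11 to 0.040), SDHA (−0.10 to 0.0064), CYC1 (−0.060 to 0.018), UQCRC2 (−0.061 to 0.054) and COX5A (−0.063 to 0.056). UQCR11 stayed between 0.38 and 0.76 (adjusted p from 0.426 to 0.921) and the ATP5F1D probes between −0.49 and −0.18. The cause of these shifts was not tested. No paired analysis was possible because the replicate letters are not shared between the groups. With 3 arrays per group, and with probes such as UQCR11 close to background, the precision of single probes is limited.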
